A study of Mus musculus with 27 samples.

Results

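The 10 genes described here encode parts of the smooth muscle contractile apparatus and the factor best known for switching it on: Acta2, Actg2, Tagln, Cnn1, Myh11, Myl9, Myocd, Smtn, Lmod1 and Mylk. They were chosen by name for these roles, and both they and the gene lists below were chosen with earlier results of these data known. Matched through GENCODE M21 symbols, all 10 were among the 51826 gene identifiers counted in each library. Total RNA had been sequenced from E14 mouse embryonic stem cells and from a Quaking KO and a Sam68 KO line derived from E14. Each line was followed from stem cells (day 0) into embryoid bodies, free-floating aggregates in which stem cells differentiate into many cell types, at days 3 and 10. There were 3 biological replicates for each of the 9 combinations of line and day, 27 libraries in all. Quaking (gene Qk) and Sam68 (gene Khdrbs1) are RNA-binding proteins of the STAR family. The wild type libraries come from the E14 reference line, which carries no knockout by its labels, and the sources used here give no drug, transgene or selection for any group. Each knockout is 1 line, so a difference between lines and an effect of the knockout cannot be told apart.

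In vascular and visceral smooth muscle, force comes from filaments of smooth muscle myosin pulling on actin, and contraction starts when myosin light chain kinase phosphorylates the regulatory light chain. Serum response factor (SRF) binds CArG boxes, short A/T-rich elements, in the promoters of many contractile genes, and its coactivator myocardin, the product of Myocd, raises their transcription. Several of these genes, among them Acta2, Tagln and Myocd, are also expressed in the developing heart, and Smtn, Mylk and Myl9 in cells that are not muscle.

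Libraries held 56461674 to 77257496 counts, and levels are given as counts per 1000000 counts (CPM) after scaling by trimmed means (TMM), with mean ± SD over 3 libraries. The mitochondrial ribosomal RNA mt-Rnr2 took 5.64% to 14.8% of the counts. Within wild type day 10, replicate 1 stood apart from the other two by the most, with a median squared difference of 10.5 and 10.6 times counting error against 1.65 for the closest pair of the series. Qk was at 235 ± 4.22, 226 ± 7.64 and 267 ± 15.2 CPM in wild type at days 0, 3 and 10, and at 159 ± 9.35, 117 ± 6.20 and 204 ± 6.19 CPM in the Quaking KO line, called lower at each day but not absent. Khdrbs1 was at 98.9 ± 1.504, 159 ± 7.24 and 115 ± 27.1 CPM in wild type and at 92.3 ± 4.49, 97.2 ± 7.31 and 99.7 ± 1.61 CPM in the libraries labelled Sam68 KO, a difference called at day 3 alone. Each gene also differed in the other line: Khdrbs1 was called lower in Quaking KO at day 0 (log2FC -0.43 ± 0.04, adjusted p = 1.17e-09), and Qk in the libraries labelled Sam68 KO at day 0 (-0.10 ± 0.04, adjusted p = 0.031) and day 3 (-0.30 ± 0.04, adjusted p = 6.19e-06). These are therefore named the Sam68-labelled libraries throughout. The sources used here do not say which part of either gene was altered. The Sam68-labelled libraries also carry a separate series of library numbers, so that a library batch and the line cannot be told apart. As bulk RNA was measured, fewer cells of a type and less RNA per cell cannot be told apart in any of the values below.

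The 10 genes did not move as a block. At day 10 the Sam68-labelled libraries held more Acta2, Myl9, Myocd, Cnn1, Lmod1 and Tagln than wild type and less Mylk, whereas the Quaking KO libraries held less Acta2, Myl9 and Myocd and more Mylk. At days 0 and 3 the Sam68-labelled line had less Acta2, Tagln, Cnn1, Myl9 and Lmod1. Some of these calls were lost in alternative fits given below. They are Acta2 and Myocd in Quaking KO, and day 0 Lmod1 and day 10 Tagln in the Sam68-labelled line. Myh11 was low in every group, Actg2 was barely present before day 10, and Smtn varied little.

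**Figure D1:**
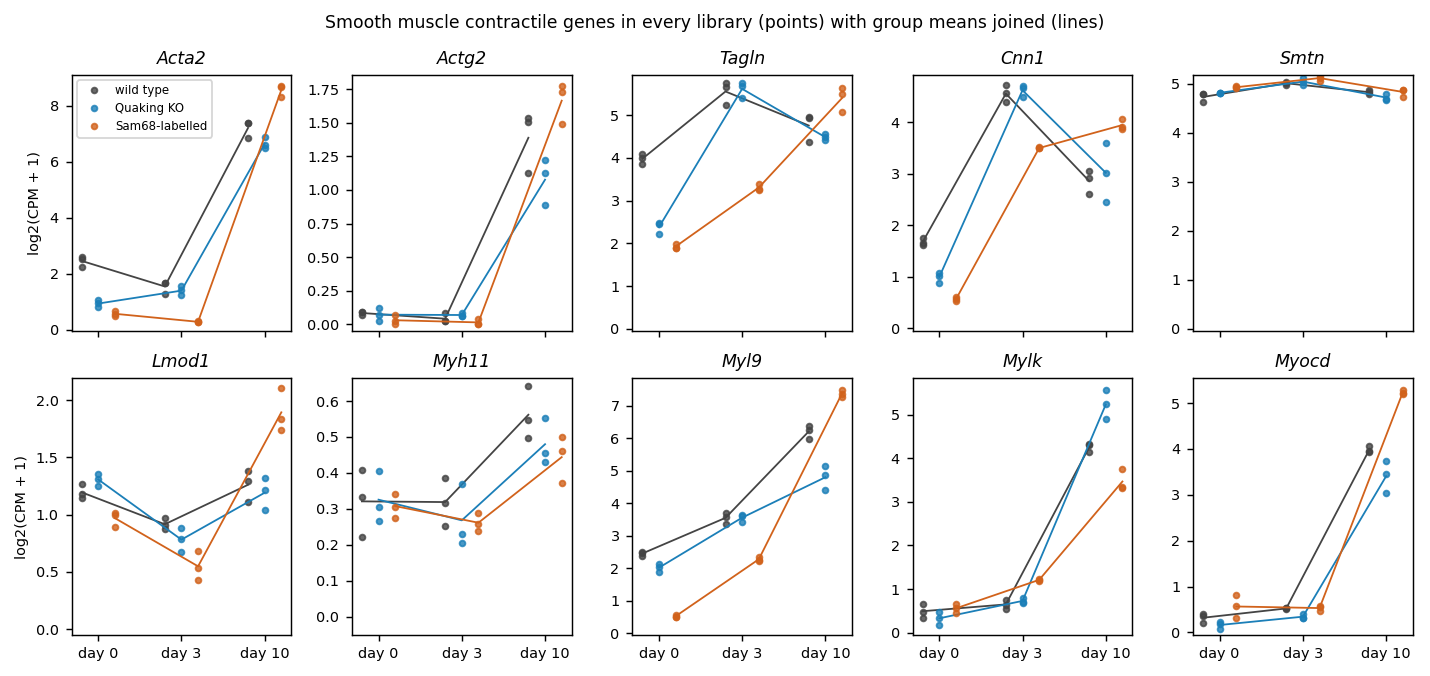
Level of each of the 10 genes in every library as log2(CPM + 1) (vertical axis, own scale for each gene) at days 0, 3 and 10 (horizontal axis) in wild type, Quaking KO and Sam68-labelled cells. Points are libraries and lines join the means of 3 logged values. Acta2 goes from under 6 CPM in all 9 day 0 libraries to 88.2 CPM or more in all 9 day 10 libraries, whereas Smtn stays between 23.5 and 34.7 CPM in all 27.

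Per kilobase of exon, the scale on which different genes can be compared, the order of the levels changed with time. In wild type stem cells Tagln stood highest at 7.44 ± 0.664 CPM per kb, followed by Smtn at 5.82 ± 0.387, Myl9 at 3.84 ± 0.235, Acta2 at 2.06 ± 0.303, Cnn1 at 0.805 ± 0.0613 and Lmod1 at 0.327 ± 0.0269. The libraries of neighbours in that order did not overlap. The other 4 genes (Myocd, Actg2, Mylk and Myh11) lay between 0.0330 and 0.0391 CPM per kb with overlapping libraries. At day 3 in wild type, Tagln led at 23.4 ± 4.24 CPM per kb, with Myl9 at 9.23 ± 1.18 and Cnn1 at 8.29 ± 0.986, whose libraries overlapped each other. At day 10 Acta2 and Myl9 came first in all 3 lines, at 67.7 ± 13.3 and 62.98 ± 9.107 CPM per kb in wild type, and at 173 ± 23.97 and 142 ± 10.96 in the Sam68-labelled libraries, overlapping within both lines. In Quaking KO they were at 45.5 ± 6.48 and 23.5 ± 5.92 CPM per kb and did not overlap. Myh11 was lowest in each line at day 10, at 0.0628 ± 0.01001 CPM per kb in wild type.

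In wild type, the genes called and their directions differed between the 2 steps of the time course. From day 0 to day 3, edgeR's quasi-likelihood test (adjusted p under 0.05 is the call used throughout) called 5 of the 10 genes higher (Cnn1, Tagln, Myl9, Myocd, Smtn) and 2 lower (Acta2, Lmod1), where 61% of 21060 genes were called, 30.8% higher and 30.1% lower. From day 3 to day 10 all 10 were called, 7 higher and 3 lower (Cnn1, Tagln, Smtn), where 76.1% of genes were called, 39.5% higher and 36.5% lower. The median log2 fold change (log2FC) of the 10 was 0.41 and 1.86 in the 2 steps, against 0.01 and 0.02 over all genes tested. The largest early rises were those of the actin-binding genes Cnn1 and Tagln, and the largest late ones those of Acta2, Actg2, Myocd and Mylk. With wild type day 0 replicate 3 left out, Myocd was no longer called in the first step (adjusted p = 0.076). Nor was Lmod1 without day 0 replicate 1 (0.0832) or day 3 replicate 2 (0.0730) or 3 (0.0617). The late Smtn fall was not called with DESeq2 (0.101) or RLE factors (0.0950). It was also lost without day 10 replicate 2 (0.0674) or day 3 replicate 2 (0.0542) or 3 (0.0532).

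Against wild type, the Quaking KO line had 4 of 9 tested genes called at day 0, all lower (39.9% of 19841 genes called, 19.5% higher and 20.4% lower), none of 9 at day 3 (7.32% of 19711, 3.27% higher and 4.05% lower), and 4 of 10 at day 10, 1 higher and 3 lower (11.7% of 20503, 4.99% higher and 6.73% lower). At day 3 just 1 of the 9, Myocd, had an unadjusted p under 0.05, and DESeq2 also called none. The Sam68-labelled line had 7 of 9 called at day 0, 2 higher and 5 lower (74.3% of genes, 36.4% higher and 37.9% lower), 7 of 9 at day 3, again 2 higher and 5 lower (73.1%, 35.9% higher and 37.2% lower), and 7 of 10 at day 10, 6 higher and 1 lower (50.5%, 22.8% higher and 27.7% lower). In that line the background is so high that a count of called genes says little, and the sizes below carry the description. Median log2FC of the tested genes was -0.69, 0.00 and -0.31 in Quaking KO and -0.35, -0.92 and 0.77 in the Sam68-labelled line at days 0, 3 and 10, against -0.04 to 0.01 over all genes. Both lines are compared with the same wild type libraries, so their differences share that error. Actg2 was too low to enter the fits at days 0 and 3.

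**Figure D2:**
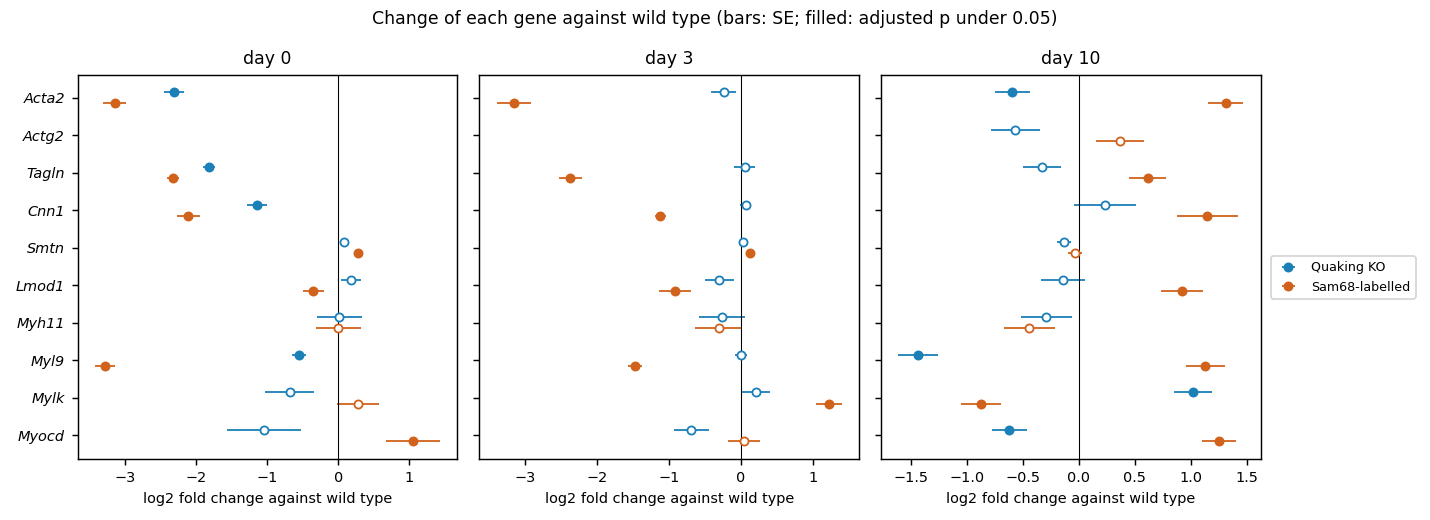
Log2 fold change against wild type (horizontal axis, bars are SE) of each gene (rows) at days 0, 3 and 10 in Quaking KO and Sam68-labelled cells, 3 libraries a group. Filled points have an edgeR adjusted p under 0.05. At day 10 Acta2, Myl9 and Myocd lie left of 0 in Quaking KO and right of 0 in the Sam68-labelled line, and Mylk does the reverse.

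Acta2, smooth muscle alpha-actin, lies on the minus strand at chr19:34241090-34255590 (GRCm38). The RefSeq table (GRCm38.p6) holds its promoter, and the 250 bases before the start site (chr19:34255374-34255623, minus strand) are shown because the difference between the Sam68-labelled line and wild type changed more from day 3 to day 10 for Acta2 than for the other 9 genes. Capitals mark boxes of the CArG type, the SRF element, and the MCAT element CATTCC or its reverse complement, which TEAD factors bind.
Acta2: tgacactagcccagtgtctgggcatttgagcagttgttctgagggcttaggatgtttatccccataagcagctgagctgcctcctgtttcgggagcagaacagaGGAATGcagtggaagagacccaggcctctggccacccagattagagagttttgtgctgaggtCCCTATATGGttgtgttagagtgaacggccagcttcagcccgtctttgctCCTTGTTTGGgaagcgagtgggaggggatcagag
Neither CArG-type box is exact: each has 1 G or C among its 6 inner bases, 84 and 34 bases upstream, and the MCAT match begins 146 bases upstream. These distances are counted from the RefSeq start, which lies inside the gene span given above.

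Acta2 in wild type stood at 3.76, 5.01 and 4.79 CPM at day 0, at 1.429, 2.208 and 2.173 CPM at day 3, and at 115, 166 and 165 CPM at day 10. Replicate 1 was the lowest at each day. The drop to day 3 was called (log2FC -1.19 ± 0.22 SE, adjusted p = 0.000642), and the 77.0-fold rise to day 10 followed (6.27 ± 0.21, adjusted p = 3.48e-10). Quaking KO stem cells had 0.735, 0.911 and 1.09 CPM, all below every wild type library, a 4.96-fold difference (log2FC -2.31 ± 0.14, adjusted p = 8.31e-13). By day 3 the Quaking KO libraries had 1.34, 1.66 and 1.92 CPM and overlapped wild type (-0.24 ± 0.17, adjusted p = 0.472). At day 10 they had 88.2, 95.7 and 116 CPM, where the highest just passed the lowest wild type library (-0.59 ± 0.16, adjusted p = 0.0372). That call is fragile: the adjusted p ran from 0.108 to 0.131 when wild type replicate 2 or 3 or Quaking KO replicate 1 or 2 was left out, and was 0.0529 in a fit of the 6 libraries alone and 0.174 without a filter on low counts.

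The Sam68-labelled line began with far less Acta2 and ended with far more. Its day 0 libraries had 0.408, 0.584 and 0.457 CPM and its day 3 libraries 0.206, 0.210 and 0.225 CPM, below every wild type library of the same day. The differences were 8.87-fold (log2FC -3.15 ± 0.16, adjusted p = 3.01e-15) and 8.93-fold (-3.16 ± 0.24, adjusted p = 1.73e-09). At day 10 the values were 408, 413 and 320 CPM, above every wild type library, a 2.48-fold difference (1.31 ± 0.16, adjusted p = 7.84e-05). Within the line the rise from day 3 to day 10 was 10.80 ± 0.20 on the log2 scale, from 13 to 15 counts per library up to between 24003 and 31879. The change of its difference from wild type between those days was 4.55 ± 0.38 (edgeR interaction, adjusted p = 2.24e-06).

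Actg2, the gamma-actin of visceral smooth muscle, was barely present before day 10. It had 0 to 5 counts per library at days 0 and 3 in all lines. At day 10 wild type had 1.18, 1.90 and 1.83 CPM (87, 146 and 143 counts), Quaking KO 1.18, 0.847 and 1.33 CPM, and the Sam68-labelled line 1.82, 2.41 and 2.32 CPM. Both knockout lines overlapped wild type: log2FC was -0.57 ± 0.22 in Quaking KO (adjusted p = 0.129) and 0.37 ± 0.21 in the Sam68-labelled line (adjusted p = 0.171). Between them, every Sam68-labelled library was above every Quaking KO library (0.93 ± 0.22, adjusted p = 0.00324). Leaving out wild type replicate 1 brought the Quaking KO difference to a call (-0.75, adjusted p = 0.0279).

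Tagln, encoding the actin-binding protein transgelin (SM22), was the most abundant of the group per length in early wild type cells. It shares 58.4% of its 50-base windows with other annotated genes, 55.4% with the antisense gene Gm48529, and as the strand setting of the counting is not given in the sources used here its counts are uncertain. Gm48529 itself was at 0.642 to 1.75 CPM on average in each group. Wild type libraries held 13.4, 14.9 and 16.0 CPM at day 0, 37.0, 53.1 and 49.4 CPM at day 3, and 19.8, 29.7 and 29.9 CPM at day 10, so that Tagln rose 3.21-fold and then fell 1.74-fold. In Quaking KO it was at 4.44, 4.57 and 3.64 CPM at day 0 (log2FC -1.82 ± 0.08, adjusted p = 7.99e-16), well under wild type. By day 3 these libraries had reached 41.5, 52.9 and 50.4 CPM, overlapping wild type (0.05 ± 0.14, adjusted p = 0.903), and at day 10 they had 21.4, 20.2 and 22.5 CPM (-0.33 ± 0.17, adjusted p = 0.259).

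Tagln in the Sam68-labelled line climbed at each step in place of peaking at day 3. It was at 2.93, 2.74 and 2.72 CPM at day 0 (5.01-fold below wild type, adjusted p = 3.33e-18), at 8.66, 8.57 and 9.47 CPM at day 3 (5.18-fold below, adjusted p = 4.47e-06), and at 44.0, 48.4 and 32.9 CPM at day 10 (1.53-fold above, adjusted p = 0.0114). The groups did not overlap at any day. Without a filter on low counts the day 10 difference was not called (adjusted p = 0.0575). From day 3 to day 10 Tagln changed by 2.24 ± 0.14 (log2) in this line, by -0.80 ± 0.17 in wild type and by -1.13 ± 0.09 in Quaking KO. The interaction with the Sam68 label was 3.07 ± 0.28 (adjusted p = 9.80e-06).

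Cnn1, encoding calponin, an inhibitor of actomyosin, showed the same day 3 peak in wild type. Levels were 2.14, 2.39 and 2.08 CPM at day 0, 19.97, 22.72 and 25.37 CPM at day 3 and 5.14, 6.54 and 7.33 CPM at day 10, a 10.5-fold rise followed by a 3.56-fold fall. Quaking KO had 1.12, 1.03 and 0.855 CPM at day 0, below all wild type libraries (log2FC -1.15 ± 0.14, adjusted p = 2.93e-07), and 21.6, 25.3 and 24.3 CPM at day 3. Its day 10 libraries spread from 4.46 to 11.1 CPM, a coefficient of variation of 44.0%, around a mean not called different from wild type (0.24 ± 0.28, adjusted p = 0.655). The Sam68-labelled line had 0.517, 0.486 and 0.440 CPM at day 0 (4.32-fold below, adjusted p = 9.29e-12) and 10.3, 10.3 and 10.4 CPM at day 3 (2.18-fold below, adjusted p = 1.25e-09). It did not fall afterwards: at day 10 it had 14.1, 15.8 and 13.6 CPM, 2.22-fold above wild type (adjusted p = 0.0065), with an interaction of 2.35 ± 0.16 (adjusted p = 1.61e-08).

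Smtn, encoding smoothelin, a protein of contractile smooth muscle filaments, was the steadiest gene of the group. Group means lay between 25.2 and 33.6 CPM. Called differences from wild type were limited to the Sam68-labelled line at day 0 (log2FC 0.28 ± 0.05, adjusted p = 4.53e-06) and day 3 (0.12 ± 0.05, adjusted p = 0.0391). The second was lost under 7 alternatives (adjusted p 0.0623 to 0.221), among them leaving out any 1 wild type library or Sam68-labelled replicate 1 or 2. At day 10 neither line was called, at -0.13 ± 0.06 in Quaking KO and -0.04 ± 0.06 in the Sam68-labelled line.

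Lmod1 encodes leiomodin, which nucleates actin filaments in smooth muscle, and was low throughout. In wild type it was at 1.29 ± 0.106 CPM at day 0, 0.886 ± 0.0608 at day 3 and 1.40 ± 0.227 at day 10. Quaking KO was not called different at any day (adjusted p from 0.335 to 0.709). The Sam68-labelled line had 0.602, 0.449 and 0.346 CPM at day 3, under every wild type library (log2FC -0.92 ± 0.22, adjusted p = 0.00098), and 3.31, 2.57 and 2.33 CPM at day 10, above all of them (0.92 ± 0.19, adjusted p = 0.00171). The interaction was 1.92 ± 0.29 (adjusted p = 5.26e-05). Its small day 0 difference (-0.35 ± 0.15, adjusted p = 0.0389) was lost under 7 alternatives (0.0526 to 0.139), among them leaving out Sam68-labelled replicate 2 or 3 or wild type replicate 1.

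Myh11, the smooth muscle myosin heavy chain and the most specific marker of mature smooth muscle among the 10, had between 10 and 43 counts in each of the 27 libraries. Wild type was at 0.251 ± 0.0809 CPM at day 0, 0.248 ± 0.0575 at day 3 and 0.478 ± 0.0761 at day 10. The rise to day 10 was called in all 3 lines: log2FC 0.94 ± 0.28 in wild type (adjusted p = 0.00732), 0.98 ± 0.29 in Quaking KO (adjusted p = 0.00723) and 0.87 ± 0.28 in the Sam68-labelled line (adjusted p = 0.00659). Against wild type, none of the 6 comparisons was called (adjusted p from 0.131 to 0.997), and at these counts smaller differences were not detectable.

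Myl9, the regulatory light chain of smooth muscle and non-muscle myosin, had the largest day 10 difference of the 10 genes in Quaking KO. Its promoter in the RefSeq table is shown because it is the only one of the 6 members found there with an exact CArG box (chr2:156775214-156775463, plus strand, 250 bases before the start site, capitals as above).
Myl9: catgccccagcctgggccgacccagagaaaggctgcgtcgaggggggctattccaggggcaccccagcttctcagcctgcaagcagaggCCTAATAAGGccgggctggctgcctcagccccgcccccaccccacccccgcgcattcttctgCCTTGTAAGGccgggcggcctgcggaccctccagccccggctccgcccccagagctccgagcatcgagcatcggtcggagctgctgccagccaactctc
The exact box lies 161 bases upstream and a second, CArG-like one 99 bases upstream.

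Wild type Myl9 rose at both steps, from 4.66, 4.15 and 4.57 CPM at day 0 to 9.235, 11.95 and 11 CPM at day 3 and 61.6, 82.3 and 75.7 CPM at day 10. Quaking KO had 2.64, 3.12 and 3.37 CPM at day 0, below each wild type library (log2FC -0.56 ± 0.10, adjusted p = 6.03e-05), and 9.75, 11.1 and 11.4 CPM at day 3, within the wild type range. At day 10 it had 20.2, 27.9 and 33.9 CPM, all far under wild type, a 2.71-fold difference (-1.44 ± 0.18, adjusted p = 0.00113). Between day 3 and day 10 the gene rose 2.62-fold in Quaking KO and 6.85-fold in wild type, and the interaction was called (-1.43 ± 0.25, adjusted p = 0.0106), the only one of the 10 genes called there, where 3.76% of 21017 genes were called, 2.14% higher and 1.62% lower.

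The Sam68-labelled libraries held 0.486, 0.405 and 0.406 CPM of Myl9 at day 0, 9.73-fold below wild type (adjusted p = 1.00e-16), and 3.72, 3.69 and 4.09 CPM at day 3, 2.78-fold below (adjusted p = 2.73e-10). At day 10 they held 164, 179 and 153 CPM, 2.19-fold above (adjusted p = 0.000432). No library overlapped wild type at any day. The interaction of 2.68 ± 0.16 (adjusted p = 1.62e-08) was one of 7 called among the 10 genes, where 54.1% of 21541 genes were called, 30.3% higher and 23.8% lower.

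Mylk encodes myosin light chain kinase and differed in the opposite direction to Acta2, Myl9 and Myocd at day 10. The gene spans chr16:34745210-35002420 on the plus strand, and the RefSeq start used in the table lies inside it. The 250 bases upstream of that start (chr16:34784700-34784949, plus strand) are shown, and the capitals mark an MCAT element 158 bases upstream. They hold no CArG-type box, and neither do the windows of Cnn1, Smtn and Lmod1. A tie between such boxes and the direction of a difference was not tested.
Mylk: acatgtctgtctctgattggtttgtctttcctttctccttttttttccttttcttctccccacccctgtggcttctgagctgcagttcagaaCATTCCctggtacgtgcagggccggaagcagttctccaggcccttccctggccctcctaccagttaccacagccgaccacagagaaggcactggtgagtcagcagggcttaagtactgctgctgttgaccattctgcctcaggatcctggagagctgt
Antisense and other genes share 4.56% of the windows of Mylk. Wild type went from 0.411 ± 0.160 CPM at day 0 and 0.569 ± 0.117 at day 3 to 18.6, 16.6 and 19.1 CPM at day 10, a 31.9-fold rise in the second step. Quaking KO was not called different at days 0 and 3 and reached 46.4, 36.8 and 28.8 CPM at day 10, above every wild type library (log2FC 1.02 ± 0.17, adjusted p = 0.00451). The Sam68-labelled line was ahead at day 3, with 1.31, 1.29 and 1.34 CPM (2.33-fold above wild type, adjusted p = 7.68e-06), and behind at day 10, with 9.13, 8.90 and 12.5 CPM (1.83-fold below, adjusted p = 0.002). The interaction was -2.02 ± 0.23 (adjusted p = 3.03e-06).

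Myocd, the coactivator of SRF, switched on late in every line. Wild type had 9 to 30 counts per library at days 0 and 3 and 15.8, 14.4 and 14.6 CPM at day 10 (34.0-fold above day 3, adjusted p = 8.14e-13). Quaking KO had 7.21, 9.91 and 12.3 CPM at day 10, all below wild type (log2FC -0.62 ± 0.16, adjusted p = 0.0268). That call was lost when any 1 wild type library was left out (adjusted p 0.0506 to 0.101), without Quaking KO replicate 2 (0.0794), in the fit of 6 libraries (0.0701), and without a filter on low counts (0.0517). The Sam68-labelled line had 37.9, 36.5 and 35.6 CPM, 2.38-fold above wild type (1.25 ± 0.15, adjusted p = 6.27e-05), with an interaction of 1.29 ± 0.17 (adjusted p = 1.75e-05). Its day 0 difference (1.05 ± 0.38, adjusted p = 0.0182) rested on 48, 15 and 29 counts with overlapping groups, and was lost without Sam68-labelled replicate 1 (0.160) or wild type replicate 3 (0.0757).

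Set directly against each other at day 10, the Sam68-labelled libraries held more of 7 genes than Quaking KO and less Mylk, 8 of 10 called where 56.6% of 20503 genes were, 25.9% higher and 30.7% lower. The differences were 5.94-fold for Myl9, 3.75-fold for Acta2, 3.67-fold for Myocd, 2.09-fold for Lmod1, 1.92-fold for Tagln, 1.91-fold for Actg2 and 1.88-fold for Cnn1, and Mylk was 3.72-fold lower. The Cnn1 call (adjusted p = 0.0174) was lost in the fit of 6 libraries (0.0593) and without a filter on low counts (0.082). From day 3 to day 10 the Quaking KO line itself had 7 genes higher and 3 lower (78% of 20855 genes called, 41% higher and 37% lower), the same split by direction as wild type, and the Sam68-labelled line 9 higher and 1, Smtn, lower (85.9% of 20646, 43.4% higher and 42.4% lower).

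Other genes of smooth muscle and the actin cytoskeleton were taken as a list of 28 that includes tropomyosins, desmin and subunits of myosin phosphatase. In the Sam68-labelled line 19 of 26 tested were lower and 2 higher at day 0, where 37.9% of all genes were lower and 36.4% higher. At day 3, 16 of 27 were lower and 5 higher (37.2% and 35.9% of all genes), and at day 10, 13 of 28 were higher and 6 lower (22.8% and 27.7%). Median log2FC of the list was -0.37, -0.27 and 0.17. Nexn, an actin-binding protein of the sarcomere, was 1.20 ± 0.14 (log2FC) above wild type and Hspb1, a small heat shock protein, 2.02-fold above at day 10, whereas Itga8, an integrin of smooth muscle and mesenchyme, was lower by -1.19 ± 0.10 and Ppp1r14a, an inhibitor of myosin phosphatase, by -0.70 ± 0.15. In Quaking KO at day 10, 6 of 28 were higher and 3 lower (4.99% and 6.73% of all genes) with a median of -0.09. Hspb1 (0.65 ± 0.11) and Pdlim3 (0.59 ± 0.11) were the highest among them, and Nexn (-1.16 ± 0.14) and Ppp1r12b, a subunit of myosin phosphatase (-0.51 ± 0.11), the lowest.

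Among 20 regulators of smooth muscle transcription, 6 were higher and 8 lower in the Sam68-labelled line at day 10, where 22.8% of all genes were higher and 27.7% lower. In Quaking KO 1 was higher and 3 lower, against 4.99% and 6.73% of all genes. Srf itself had 40.3, 44.2 and 44.3 CPM in wild type, 43.2, 43.2 and 45.8 in Quaking KO and 64.7, 64.2 and 66.0 in the Sam68-labelled line, where it was called higher (log2FC 0.55 ± 0.06, adjusted p = 1.11e-05). Srf was named after its values were seen. Klf4, which opposes myocardin in smooth muscle, was 1.74 ± 0.15 higher and Tbx18, a factor of the epicardium, 1.74 ± 0.26 higher in that line. Tbx18 was also the 1 regulator called higher in Quaking KO (0.94 ± 0.26, adjusted p = 0.0455). Tcf21, which marks epicardial and fibroblast precursors, was low in both: wild type had 7.45 to 9.64 CPM, Quaking KO 1.43 to 1.63 CPM (-2.48 ± 0.14) and the Sam68-labelled line 0.852 to 1.19 CPM (-3.09 ± 0.15). Prrx1, of limb and other mesenchyme, was lower in the Sam68-labelled line (-1.48 ± 0.29).

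TGF-beta signalling induces contractile genes in many precursor cells. Of 15 of its ligands, receptors, signal carriers and response genes, 5 were higher and 5 lower in the Sam68-labelled line at day 10, where 22.8% of all genes were higher and 27.7% lower, so that the count says little about the list. Ccn2, a response gene shared with other pathways, was at 243, 252 and 232 CPM against 55.5, 51.5 and 52.5 CPM in wild type (2.14 ± 0.22), and the ligand gene Tgfb3 (-1.05 ± 0.17) and the latency protein gene Ltbp1 (-0.83 ± 0.13) were lower.

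**Figure D3:**
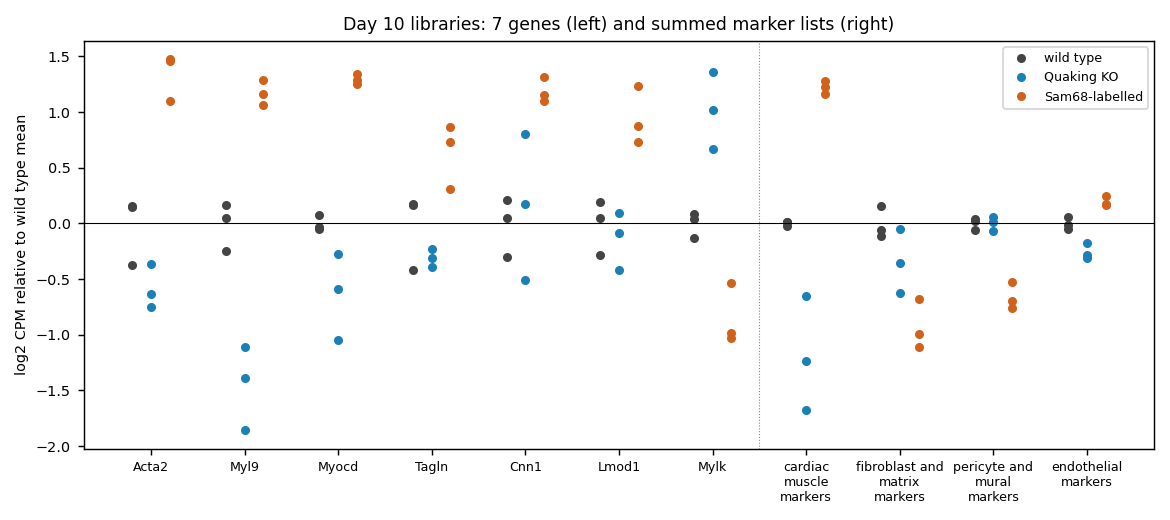
Day 10 level of 7 of the genes (left of the dotted line) and summed level of 4 marker lists (right) in each library, as log2 of CPM relative to the wild type mean (vertical axis), for 3 wild type, 3 Quaking KO and 3 Sam68-labelled libraries. The cardiac sum is below wild type in Quaking KO and above it in the Sam68-labelled line, as are Acta2, Myl9 and Myocd. Mylk lies on the other side in both.

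Marker lists of other cell types also differed between the lines at day 10, though not all in the same direction. The summed level of 18 cardiac muscle genes ran from 2035 to 2096 CPM in wild type, from 648.5 to 1324 in Quaking KO and from 4655 to 5045 in the Sam68-labelled libraries, and none of the 18 was at 0 at that day. In Quaking KO 13 of them were called lower, among them Actn2 (log2FC -2.55 ± 0.19) and Myh6 (-2.10 ± 0.23), and 1, Nppb, higher, where 6.73% of all genes were lower and 4.99% higher. In the Sam68-labelled line 15 were higher and none lower, at the head of them Nppb (2.52 ± 0.20) and Nppa (2.52 ± 0.35), where 22.8% of all genes were higher and 27.7% lower. The same shares of all genes apply to the lists that follow. Over 13 fibroblast and matrix genes the sums were 8958 to 10750, 6279 to 9331 and 4477 to 6043 CPM in wild type, Quaking KO and the Sam68-labelled line, with 1 and 10 called lower in the last pair. For 10 pericyte and mural genes they were 446.6 to 477.9, 444.1 to 484.3 and 275.7 to 322.4 CPM, with 2 and 9 called lower, Abcc9 in both lines (-2.13 ± 0.21 in Quaking KO and -1.91 ± 0.20 in the Sam68-labelled line) and Kcnj8 in the latter (-3.01 ± 0.33). Kcnj8 was at -0.69 ± 0.29 in Quaking KO (adjusted p = 0.165). Endothelial sums were 463 to 499.3, 387 to 423.8 and 538.9 to 570.2 CPM. Of the 10 endothelial genes 4 were called lower in Quaking KO, and in the Sam68-labelled line, whose sum was the highest, 5 were lower, among them Emcn (-1.70 ± 0.12) and Kdr (-1.04 ± 0.06), and 2 higher, Flt1 (1.20 ± 0.11) and Tek (0.42 ± 0.12). Skeletal muscle sums, over 13 genes, were low at 6.634 to 8.374, 5.497 to 7.36 and 20.48 to 30.28 CPM. Of these 13 genes 4 could be tested: in the Sam68-labelled line Acta1, skeletal alpha-actin, was the 1 called higher (2.84 ± 0.22) and made up 22.3 ± 4.98 CPM of the sum, and Tnnt3 was lower (-0.52 ± 0.17). In Quaking KO Tnnt3 was lower (-1.22 ± 0.18) and none higher. The part of these cell types in the differences of the 10 genes was not tested.

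Libraries within a line also differed in both. Among the Quaking KO libraries of day 10, replicate 1 had the lowest cardiac sum (648.5 CPM), the lowest Acta2, Myl9, Myocd, Cnn1 and Lmod1, and the highest Mylk (46.4 CPM) and fibroblast sum (9331 CPM). Replicate 3 was at the other end of each of these. Not all members kept this order. Tagln (21.4, 20.2 and 22.5 CPM) and Actg2 (1.18, 0.847 and 1.33 CPM) were lowest in replicate 2. Myh11 and Smtn were highest in replicate 1. Among the Sam68-labelled libraries, replicate 3 had the lowest cardiac sum (4655 CPM) and the lowest Acta2, Myl9, Myocd, Tagln, Cnn1, Lmod1 and Myh11. It had the highest Mylk (12.5 CPM) and fibroblast sum (6043 CPM). There Actg2 was lowest in replicate 1 (1.82 CPM) and Smtn in replicate 2 (25.6 CPM). In wild type, replicate 1 had the lowest Acta2, Actg2, Myl9, Tagln, Cnn1 and Lmod1 but the highest Myocd and cardiac sum. With 3 libraries in each group these are descriptions.

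At days 0 and 3 the cardiac sum was at most 168.5 CPM and 21.2 CPM, and the day 0 differences of Acta2, Tagln, Cnn1 and Myl9 stood beside other values. The sum of 8 pluripotency genes at day 0 was 3833 to 4035 CPM in wild type, 4310 to 4545 in Quaking KO and 2698 to 2736 in the Sam68-labelled libraries. Its relation to the differences of those 4 genes was not tested. All 8 genes were detected in each line.

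Outside the lists, the genes closest in profile to the median of the 10 were sought over the 9 group means among 12148 protein-coding genes reaching 5 CPM, as the root-mean-square difference of centred log2(CPM + 1). The closest were Pctp (0.268), Trp53inp2 (0.300), Hgsnat (0.300), Rap2c (0.303), Prkg2 (0.306), Nudt16 (0.309), B3glct (0.312) and Ilk (0.315). The members themselves lay farther away, from 0.476 for Actg2 to 2.34 for Acta2, so that the median profile describes none of them closely.

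Promoter windows of 6 of the 10 genes (Acta2, Cnn1, Myl9, Smtn, Lmod1 and Mylk) were in the RefSeq table of 300-base windows, which run from 250 bases before to 50 after the start site. Each of these starts lay inside the GENCODE span of its gene. An exact CArG box was found in 1 of them, a CArG-like box in 2 (Acta2 and Myl9), and MCAT in 4 (Acta2, Smtn, Lmod1 and Mylk), both strands being searched. Of all 32851 windows, 1.63% held an exact CArG box, 8.5% a CArG-like one and 14.7% an MCAT. Cnn1 held none of these within its window. A match is a description of the letters and not evidence of binding.

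**Figure D4:**
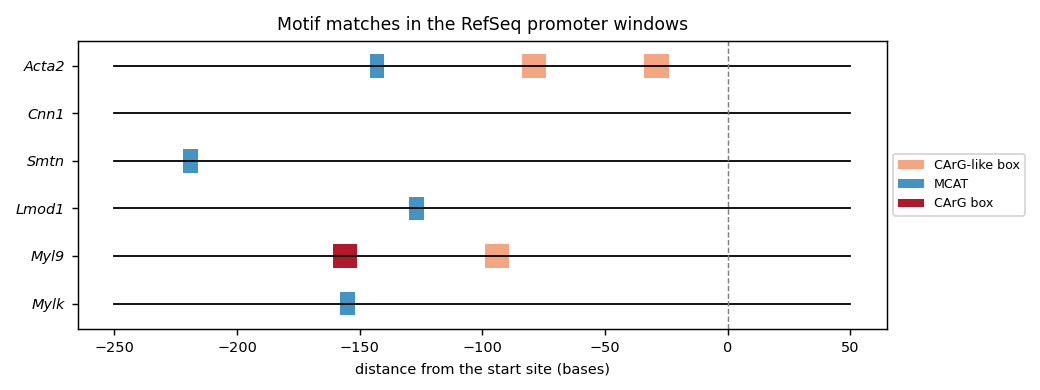
Position of CArG boxes, CArG-like boxes and MCAT elements (coloured blocks) in the promoter windows of 6 genes (rows), in bases from the RefSeq start site (horizontal axis, dashed line at the start). Acta2 holds 2 CArG-like boxes, Myl9 an exact and a CArG-like box, and Smtn, Lmod1 and Mylk an MCAT each.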

How the data were processed

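Total RNA depleted of ribosomal RNA was sequenced as stranded paired reads of 125 bases, per the labels. The authors deposited 1 table of raw read counts per gene for each of 27 libraries; bcl2fastq 2.17.1.14, STAR 2.5.3a and the mm10 build are named in the submitters' processing notes, and for the counting program, its strand setting and the annotation the entry is: not given in the sources used here. Identifiers were matched without version to GENCODE M21 (51633 of 51826). No count row lacked a gene.

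Counts were tested with edgeR 4.0.16 (filterByExpr, minimum count 10, TMM, robust quasi-likelihood fit, Benjamini-Hochberg adjustment over all genes tested) in R 4.3.3, after a check on simulated data. Libraries of 1 day entered a comparison of lines, and libraries of 1 line a comparison of days. Alternatives were DESeq2 1.42.0, RLE factors, no filter, protein-coding genes without shared 50-base windows, only the libraries compared, a replicate block, and leaving out each library. P-values weigh a difference against the spread between replicate libraries. They cover no variation between separate lines of a knockout, as each knockout is 1 line. Numbers were taken to pair libraries where the correlation of deviations was over 0.1 for each of the 3 numbers. This held in 1 comparison, Quaking KO against wild type at day 3 (0.489, 0.210 and 0.154). For replicates 2 and 3 there, the best other number came close (0.204 and 0.113), so pairing is uncertain. The main fit of that comparison had no block, and the block called 0 of the 9 tested genes there too. Genes named outside the 10 are Qk, Khdrbs1, up to 2 risen and 2 fallen called genes per list with the largest fold change and a mean of at least 1 CPM, and the 8 closest in profile; Srf was added, and 1 gene the rule names is not reported here. The members and lists were chosen with earlier results of these data known.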

Additional observations from a re-analysis of the deposited data

Results flagged for a closer look

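In 8 cases the difference of a line from wild type was not the same at day 3 and day 10 by a test of the change itself (edgeR quasi-likelihood test of the interaction, 12 libraries, Benjamini-Hochberg adjustment over all genes). In Quaking KO the change was -1.43 ± 0.25 (log2, SE) for Myl9. In the Sam68-labelled line it was 4.55 ± 0.38 for Acta2, 3.07 ± 0.28 for Tagln, 2.68 ± 0.16 for Myl9, 2.35 ± 0.16 for Cnn1, 1.92 ± 0.29 for Lmod1, 1.29 ± 0.17 for Myocd and -2.02 ± 0.23 for Mylk. For Acta2, Tagln, Cnn1, Myl9 and Lmod1 the libraries lay below every wild type library at day 3 and above every one at day 10, and for Mylk the reverse.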

How the results depend on the processing

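Over 1533 recomputed log2 fold changes of single genes, 1445 kept direction and call, 42 lost the call, 10 gained it and 36 changed sign; each sign change was in a difference that was not called. The number of the 10 genes called changed by more than 1.5 times with protein-coding genes without shared sequence. Only Actg2, Cnn1, Lmod1 and Myl9 share no window, so at most 4 could be called, and Actg2 was too low at days 0 and 3. The number was then 2 at day 0 in either line, and 3 and 3 in the Sam68-labelled line at days 3 and 10. It was 1 in Quaking KO at day 10, 4 between the knockout lines and 3 for wild type to day 3. From day 3 to day 10 it was 4 in each of the 3 lines, and 3 for the Sam68-labelled change of difference. It was 2 for Quaking KO at day 10 without a filter or with only 6 libraries, and 2 for the Quaking KO change of difference with DESeq2, without a filter and with the replicate block within line, each adding Mylk. Beyond the limit of 4 testable genes, the cause was not tested.

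Leaving out each library in turn gave 4 to 6 (Quaking KO) and 6 to 7 (Sam68-labelled) called at day 0, 0 and 6 to 7 at day 3, 2 to 4 and 7 at day 10, 8 between the lines, 6 to 7 and 9 to 10 for the wild type steps, 10 for the later step of either knockout line, and 1 to 2 and 7 for the changes of difference. Sign-changing ranges were -0.2226 to 0.2213 for Myh11 (Sam68-labelled, day 0), -0.2032 to 0.2411 for Myh11 (Quaking KO, day 0), -0.2015 to 0.2468 for Myh11 (wild type, day 3 against 0), -0.1968 to 0.3131 and -0.3212 to 0.04774 for Myh11 (change of difference, Quaking KO and Sam68-labelled), -0.039 to 0.1464 for Myocd (Sam68-labelled, day 3), -0.05687 to 0.04113 for Smtn (Sam68-labelled, day 10), -0.1564 to 0.5136 for Cnn1 (Quaking KO, day 10), -0.2018 to 0.4612 and -0.1125 to 0.2675 for Cnn1 and Myocd (Quaking KO change of difference), and in Quaking KO at day 3 -0.102 to 0.08364 for Myl9, -0.01749 to 0.06807 for Smtn, -0.09532 to 0.1555 for Tagln and -0.02731 to 0.1509 for Cnn1. Other sign changes were Myl9 in Quaking KO at day 3 (-0.0004295 with DESeq2, -0.0004636 with RLE factors, -0.006216 without a filter), Myh11 in the Sam68-labelled line at day 0 (0.008807 with the replicate block), and Myh11 in the changes of difference (0.005768 with DESeq2 and 0.004583 with RLE factors in Quaking KO, 0.0007972 without a filter in the Sam68-labelled line).

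Over all genes, the replicate block moved the calls from 1442 to 2572 (Quaking KO, day 3), from 2404 to 1571 (Quaking KO, day 10) and from 791 to 1195 (Quaking KO change of difference), where DESeq2 gave 1214. Outside Quaking KO against wild type at day 3, no comparison had a same-number correlation over 0.1 for all 3 numbers, though some numbers did, among them 0.264 and 0.285 for replicates 1 and 3 of wild type days 0 and 3, 0.302 and 0.209 for those of days 3 and 10, and 0.110 and 0.120 for replicates 1 and 2 of Quaking KO and wild type at day 10.
Leaving out 1 library took these to 817 and 881 (day 3, wild type replicate 2 or 3), 1440 (day 10, Quaking KO replicate 2) and 404 to 489 (change of difference, Quaking KO day 3 replicate 1 or 3, day 10 replicate 2, wild type day 3 replicate 2 or 3). The set without shared sequence gave 743 to 5608 calls.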
